A study of Homo sapiens with 2 samples.

Results

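Receptor tyrosine kinases carry growth factor signals across the cell membrane. The 10 receptors described here, EGFR, ERBB2, ERBB3, MET, IGF1R, FGFR1, FGFR2, FGFR3, FGFR4 and AXL, are known from work on liver cancer, and they were chosen by gene symbol from the 58174 genes listed in both deposited tables. RNA-seq was performed on 1 library of PLC-8024-CTR cells (genotype label Control, a control vector) and 1 library of PLC-8024-GDF1 cells (genotype label GDF1-overexpression). PLC-8024 is a human hepatocellular carcinoma (HCC) cell line, and GDF1 is a secreted ligand of the TGF-β superfamily that was delivered by lentivirus, with puromycin selection of the transduced cells. The sources used here do not say whether each line is 1 clone. The comparison asks how the transcriptome of the cells differs when GDF1 is overexpressed.

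Each of these receptors spans the membrane once and holds a kinase domain in the cytoplasm. Ligand binding pairs most of these receptors, and the paired kinases phosphorylate tyrosines. Docking proteins such as GRB2 and SHC1 then pass the signal to the RAS-ERK and PI3K-AKT cascades. In the liver, EGFR and MET are known for their part in regeneration, and FGFR4 with its coreceptor KLB receives FGF19, the gut hormone that turns down bile acid synthesis.

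Values are TPM, a transcript abundance scaled by transcript length and by the total of the library, so levels of different genes can be compared within a library. TPM keeps no sequencing depth, so the depth is unknown here and no counting error is given. A change is log2((TPM + 1)/(TPM + 1)) with the GDF1 library above the control library, except where the plain TPM ratio is given, and the added 1 makes the change of low genes smaller. Since the design holds 1 library for each condition, replicate error is not known, no test was made, and "past 2-fold" (a log2 change over 1 or under -1) is a rule of size. In bulk samples, fewer cells of a kind and less RNA per cell cannot be told apart.

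GDF1 itself was listed at 2.1 TPM in the control library against 4.64 TPM in the GDF1 library, and CERS1, whose exons hold the GDF1 coding sequence, at 13.3 and 9612 TPM. Of the 10 hepatocyte markers, all had at least 1 TPM in PLC-8024-CTR, from 7.17 TPM for TTR to 5308 TPM for SERPINA1. Their summed level was 8244 and 4816 TPM. This sum includes AFP (31.4 and 9.75 TPM), which the paper uses as a liver progenitor marker. The 5 epithelial markers went both ways and summed to 2444 and 3013 TPM. CDH1, the gene of E-cadherin, fell from 10.4 to 0.33 TPM and KRT19 rose from 4.46 to 10.9 TPM, while KRT8 was listed at 1424 and 1777 TPM and KRT18 at 1005 and 1224 TPM. PTPRC and HBB of the 7 blood cell markers and VWF and KDR of the 7 endothelial markers were listed at 0.0001 TPM, the value that stands for 0, in both libraries. The exceptions in these lists were LYZ (298.0 and 213.5 TPM) and PECAM1 (23.2 and 22.2 TPM). The 7 fibroblast markers summed to 3.80 and 2.76 TPM. The part of these markers in the changes of the receptors was not tested.

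By this rule none of the 10 receptors was past 2-fold in either direction, though ERBB3 and IGF1R were past it by the plain TPM ratio, and every one of the 9 with at least 1 TPM in either library had less TPM in PLC-8024-GDF1. Their changes ran from -0.96 for ERBB3 to -0.13 for FGFR4, with a median of -0.55, while the median over all 14929 genes with at least 1 TPM was -0.20. Among those genes 9.61% were past 2-fold lower and 4.82% past 2-fold higher, and 63.3% were lower by any size. FGFR2 was listed at 0.0001 TPM in both libraries and gives no change. The median of all genes lies below 0, so TPM of PLC-8024-GDF1 were also multiplied by 1.15, which brings the median plain log2 ratio of genes with at least 5 TPM from -0.21 to 0. With this rescaling 8 of the 9 receptors were still lower, with a median of -0.42, and FGFR4 turned to 0.08. Among all genes 50.8% were lower at this setting, with a median of -0.01. Once a smooth trend of the change with GC content was subtracted, the 9 receptors were still below 0, with a median of -0.47, but MET moved to -0.11 and FGFR1 to -0.10. Among all genes 46.6% were below 0 after this subtraction, with a median of 0.04.

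**Figure D1:**
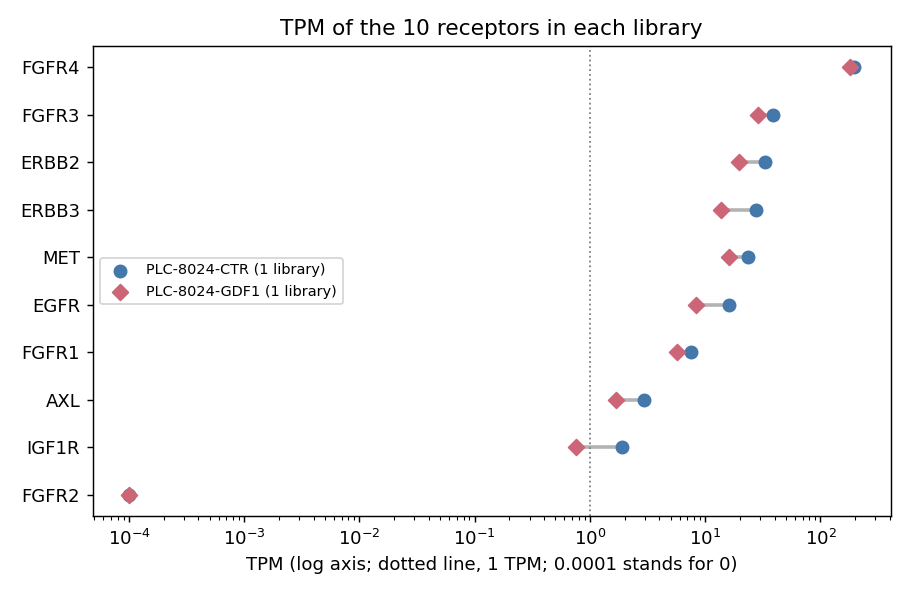
TPM of the 10 receptors on a log axis, with a circle for the PLC-8024-CTR library and a diamond for the PLC-8024-GDF1 library joined by a grey line. The diamond lies to the left of the circle for 9 receptors, closest for FGFR4 (196.4 and 179.5 TPM), and FGFR2 is at 0.0001 TPM in both.

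FGFR4 dominated the receptors in both libraries. It was listed at 196.4 TPM in the control library against 179.5 TPM in the GDF1 library, which was 56.6% and 65.5% of the summed TPM of the 10 receptors. Among all 58 human receptor tyrosine kinases its share was 39.6% and 48.6%. The sum of the 10 receptors was 347.1 TPM in the control library against 273.9 TPM in the GDF1 library, a log2 change of -0.34, and without FGFR4 it was 150.7 and 94.4 TPM, a log2 change of -0.67. The other receptors thus made up a smaller part of the total in the GDF1 library.

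The order of the receptors by TPM was nearly the same in both libraries. It ran FGFR4, FGFR3, ERBB2, ERBB3, MET, EGFR, FGFR1, AXL and IGF1R in PLC-8024-CTR, and in PLC-8024-GDF1 ERBB3 and MET had changed places. ERBB3 was listed above MET in the control library at 27.5 against 23.3 TPM and below it in the GDF1 library at 13.7 against 16.0 TPM. With 1 library each, the spread that would separate neighbours in this order is not known.

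The 9 receptors with TPM also stood lower in the order of all genes, a measure that does not change when a library is multiplied by a factor. FGFR4 was in place 713 of 58174 genes in PLC-8024-CTR and 765 in PLC-8024-GDF1. ERBB3 moved from place 3845 to 5338 and EGFR from 5371 to 6824. FGFR1 moved from 7825 to 7967. Of the 14929 genes with at least 1 TPM, 51.4% stood lower in PLC-8024-GDF1.

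Promoter sequences are shown for FGFR4, the receptor with the most TPM, and for EGFR and ERBB2, whose TPM differed more between the libraries. They are the 250 bases before the first listed RefSeq start of each gene on GRCh38.p14, at chr5:177086665-177086914 for FGFR4, chr7:55018767-55019016 for EGFR and chr17:39687844-39688093 for ERBB2, all on the plus strand. Capitals mark the GC box GGGCGG or its reverse complement CCGCCC, a binding element of SP1 family factors found in many promoters without a TATA box.
FGFR4: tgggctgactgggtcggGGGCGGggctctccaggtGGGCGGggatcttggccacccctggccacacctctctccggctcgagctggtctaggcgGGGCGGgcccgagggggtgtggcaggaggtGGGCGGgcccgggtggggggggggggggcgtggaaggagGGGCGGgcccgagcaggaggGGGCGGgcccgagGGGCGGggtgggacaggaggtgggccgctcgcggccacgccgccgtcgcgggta
EGFR: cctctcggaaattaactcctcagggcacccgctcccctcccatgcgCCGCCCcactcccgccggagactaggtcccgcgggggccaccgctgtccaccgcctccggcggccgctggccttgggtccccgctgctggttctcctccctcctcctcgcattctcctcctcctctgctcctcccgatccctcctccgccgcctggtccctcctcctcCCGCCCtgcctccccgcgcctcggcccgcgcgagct
ERBB2: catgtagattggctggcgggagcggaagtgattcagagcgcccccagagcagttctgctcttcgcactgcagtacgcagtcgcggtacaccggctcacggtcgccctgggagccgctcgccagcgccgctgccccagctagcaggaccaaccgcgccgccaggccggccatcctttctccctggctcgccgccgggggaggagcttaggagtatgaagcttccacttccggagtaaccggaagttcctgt
The FGFR4 window held 7 GC boxes, the EGFR window 2 and the ERBB2 window 0. Whether the first listed start is the one used in these cells was not tested. The counts thus describe these windows and not every promoter of a gene. PGAP3, on the opposite strand, shares 144 exonic bases with ERBB2, so the ERBB2 window may lie partly in PGAP3 exons. Its 0 GC boxes should therefore not be read against the counts of the FGFR4 and EGFR windows. RefSeq windows were found for 8 of the 10 receptors, without ERBB3 and FGFR1. In the first listed window of each gene, the GC box occurred in 7 of the 8 receptors and in 42.3% of 27305 genes. TATAAA, the TATA box, read on both strands, occurred in 0 of the 8 and in 11.1% of all genes. CAGAC, the short element that SMAD proteins bind, read on both strands, occurred in 2 of the 8 (MET and AXL) and in 37.8% of all genes. The GC content of the 8 windows had a median of 76%, and that of all genes 58%. A match of letters is a description of the window and not a bound site.

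The 3 ERBB receptors all had less TPM in the GDF1 library under every alternative tried. Their summed TPM was 76.6 in the control library against 41.6 in the GDF1 library, a log2 change of -0.87. ERBB3 (ENSG00000065361, chromosome 12 of GRCh37, 56470583 to 56497289), a receptor with a weak kinase that signals through its partners, was listed at 27.5 and 13.7 TPM, a change of -0.96. Its plain TPM ratio was 0.498, which is past 2-fold by a small margin, so that it was among the 16.3% of genes past 2-fold lower by the plain ratio. EGFR (ENSG00000146648, chromosome 7, 55086710 to 55279321), the receptor of EGF, was listed at 16.1 and 8.34 TPM, a change of -0.87. ERBB2 (ENSG00000141736, chromosome 17, 37844167 to 37886679), which binds no ligand of its own and pairs with the others, was listed at 33.0 and 19.6 TPM, a change of -0.73. ERBB3, EGFR and ERBB2 were at percentiles 10.7, 12.8 and 18.4 of the changes of all genes with at least 1 TPM. With the GC trend removed they were at -0.74, -0.56 and -0.63.

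The ligands of these receptors with at least 1 TPM differed in the same direction. Of the 11 ERBB ligands, 4 passed the minimum of 1 TPM, and AREG alone was past 2-fold lower, beside 9.61% of all genes. AREG, which encodes the EGFR ligand amphiregulin, was listed at 196.4 TPM in the control library against 62.9 TPM in the GDF1 library, a change of -1.63. HBEGF, another EGFR ligand that also binds ERBB4, was listed at 4.75 and 1.94 TPM, a change of -0.97. EREG was listed at 3.98 and 2.51 TPM, and NRG2, a neuregulin for ERBB3 and ERBB4, at 1.33 and 0.65 TPM. AREG supplied most of the ligand TPM in both libraries, since the 11 genes together summed to 206.9 and 68.5 TPM. EGF, TGFA, BTC and EPGN were listed at 0.0001 TPM in both libraries. Also under 1 TPM, NRG4 was listed at 0.32 and 0.52 TPM, NRG1 at 0.01 and 0.0001 TPM and NRG3 at 0.11 and 0.0001 TPM. The changes of the 4 ligands stayed below 0 with rescaled TPM. ADAM17, the protease that releases AREG and HBEGF from the membrane, was listed at 1.86 and 0.76 TPM.

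**Figure D2:**
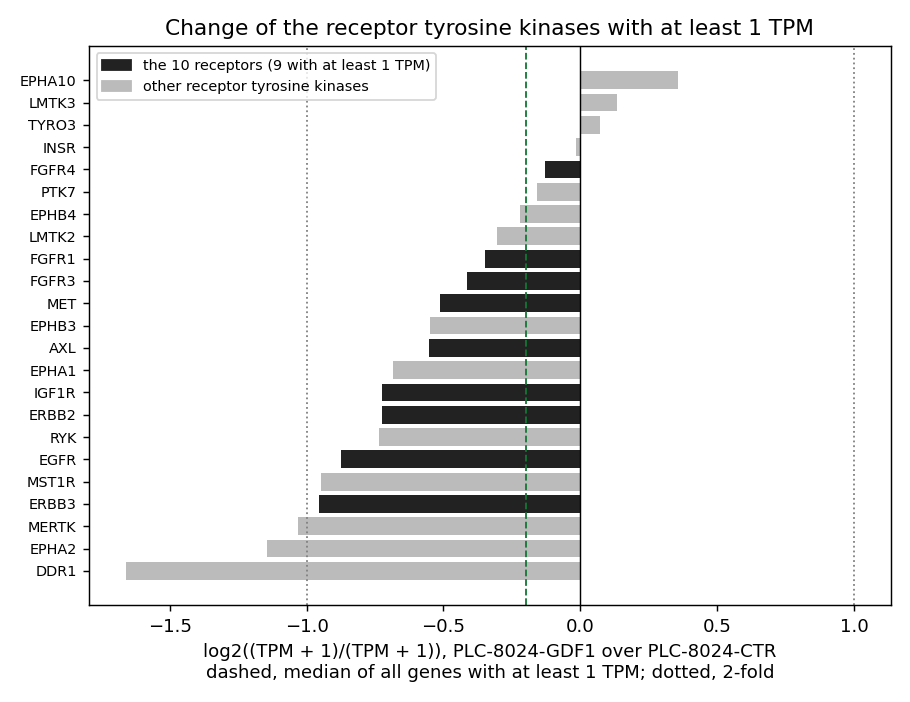
Log2 change of the 23 receptor tyrosine kinases with at least 1 TPM in either library, with black bars for 9 of the 10 receptors and grey bars for the other kinases. All black bars point below 0 and none passes the dotted 2-fold line, and 8 of them end below the dashed median of all genes (-0.20).

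MET (ENSG00000105976, chromosome 7, 116312250 to 116438431), the receptor of hepatocyte growth factor, was listed at 23.3 TPM in the control library against 16.0 TPM in the GDF1 library, a change of -0.51 that was -0.11 with the GC trend removed. Its ligand gene HGF was under 1 TPM in both libraries (0.08 and 0.05 TPM). HPN encodes hepsin, a hepatocyte surface protease that can activate HGF, and was listed at 162.3 and 101.8 TPM, a change of -0.67. SPINT2, an inhibitor of that class of protease, was listed at 276.3 and 256.2 TPM, a change of -0.11 that turned to 0.10 with rescaled TPM. Of the 6 genes of this list 2 had at least 1 TPM, and 0 were past 2-fold. Of all genes, 9.61% were past 2-fold lower and 4.82% higher.

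IGF1R (ENSG00000140443, chromosome 15, 99191768 to 99507759), the receptor of the insulin-like growth factors, was the lowest of the 9 receptors. It was listed at 1.90 TPM in the control library against 0.75 TPM in the GDF1 library, a change of -0.73. At such a low level the change depended on the pseudocount, and the plain TPM ratio was 0.397, a log2 ratio of -1.33. Both ligand genes, IGF1 and IGF2, were listed at 0.0001 TPM in both libraries. The gene around this receptor with the most TPM was IGFBP1, a secreted IGF binding protein of the liver, which was past 2-fold lower, from 2967 to 620.8 TPM, a change of -2.26. IGFBP3 was listed at 135.2 and 84.9 TPM, IGFBP4 at 40.4 and 28.9 TPM and IGF2R, which clears IGF2, at 21.7 and 12.9 TPM. IGFBP6 went the other way, from 0.50 to 2.13 TPM, a change of 1.06 that passed 2-fold and was 0.93 with the GC trend removed. In the list of 10 genes, 5 had at least 1 TPM, 1 of which was past 2-fold lower and 1 past 2-fold higher. INSR, the insulin receptor and the nearest relative of IGF1R, was listed at 7.93 and 7.83 TPM, a change of -0.02 that turned to 0.17 with rescaled TPM.

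The FGF receptors summed to 242.4 TPM in the control library against 213.8 TPM in the GDF1 library, a log2 change of -0.18. FGFR4 (ENSG00000160867, chromosome 5, 176513906 to 176525145) had a change of -0.13, at percentile 54.8 of all genes. FGFR3 (ENSG00000068078, chromosome 4, 1795020 to 1810599) was listed at 38.4 and 28.6 TPM, a change of -0.41. FGFR1 (ENSG00000077782, chromosome 8, 38257733 to 38326352) was listed at 7.54 and 5.70 TPM, a change of -0.35 that was -0.10 with the GC trend removed. FGFR2 (ENSG00000066468, chromosome 10, 123237846 to 123357972), which like FGFR1 lies on the minus strand, was at 0.0001 TPM in both libraries. The FGF receptors with TPM lay in a row by level, FGFR4 above FGFR3 above FGFR1, and this order was kept in both libraries.

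Of the 21 FGF ligands and coreceptors, 5 had at least 1 TPM in either library. KLB (β-Klotho), which FGFR4 needs to receive FGF19, was listed at 2.49 and 1.36 TPM, a change of -0.57. FGF19 was listed at 2.51 and 1.16 TPM, a change of -0.70, and FGF21, a hepatic hormone that also uses KLB, at 0.39 and 1.18 TPM, a change of 0.64. FGF22 was past 2-fold higher, from 2.04 to 5.71 TPM, a change of 1.14 that was 0.86 with the GC trend removed, and 0 genes of the list were past 2-fold lower. FGFRL1, a receptor of this family that lacks the kinase domain, had the most TPM of the list, at 39.2 and 29.5 TPM. KL, the coreceptor of FGF23, was listed at 0.0001 TPM in both libraries.

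AXL (ENSG00000167601, chromosome 19, 41725128 to 41767671), a receptor of the TAM family known in cancer for its link to mesenchymal states and drug resistance, was listed at 2.95 TPM in the control library against 1.69 TPM in the GDF1 library, a change of -0.55. Its relatives TYRO3 and MERTK were listed at 2.48 and 2.65 TPM and at 4.19 and 1.54 TPM. MERTK was past 2-fold lower at -1.03, but it was at -0.90 after rescaling and at -0.69 after the GC trend was subtracted. Of the ligands, GAS6 was listed at 0.0001 and 0.07 TPM, and PROS1, which encodes protein S of the liver, at 21.0 and 14.2 TPM, a change of -0.54.

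The other 48 human receptor tyrosine kinases were set beside the 10. The minimum of 1 TPM was passed by 14 of them, with a median change of -0.43, and 11 of the 14 were below 0. Past 2-fold lower were 3, DDR1, EPHA2 and MERTK, and past 2-fold higher were 0. DDR1, a collagen receptor, was listed at 31.0 and 9.12 TPM, a change of -1.66, and EPHA2, an ephrin receptor, at 25.1 and 10.8 TPM, a change of -1.14. With rescaled TPM, DDR1 was the 1 kinase that stayed past 2-fold lower. EPHB4 had the most TPM of these kinases in both libraries, at 34.6 and 29.5 TPM. The kinases above 0 were EPHA10 (1.73 and 2.5 TPM), LMTK3 (12.0 and 13.3 TPM) and TYRO3. Thus 3 of 14 other kinases and 0 of 9 receptors were past 2-fold lower, beside 9.61% of all genes. By the plain TPM ratio these counts were 4 and 2, beside 16.3% of all genes. With rescaled TPM they were 1 and 0, beside 1022 of 15151 genes. The difference between kinases and receptors was not tested. Listed at 0.0001 TPM in both libraries were 18 of the 48.

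The genes that carry and limit the signal of these receptors were then examined from fixed lists. The 10 lists, from ligands to targets, named 109 genes, of which 69 had at least 1 TPM in either library. Past 2-fold lower were 17 (24.6%) and past 2-fold higher were 2 (2.90%), against 9.61% and 4.82% of all genes. The median change was -0.59 and 59 of the 69 were below 0. Rescaling the TPM gave these genes a median of -0.45 and 13 of 70 past 2-fold lower, where 1022 of 15151 genes in all were lower. Subtracting the GC trend gave a median of -0.38, with 8 of 69 past 2-fold lower and 0 higher, where 788 of 14640 genes in all were lower and 1030 higher.

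Of the 18 adaptors and docking proteins, 15 had at least 1 TPM, with a median of -0.56. Past 2-fold lower were 4 (26.7%) and past 2-fold higher 0, against 9.61% and 4.82% of all genes. The 4 were IRS2, CRK, NCK1 and NCK2. NCK2 was not past 2-fold with rescaled TPM (-0.85), and with the GC trend removed neither NCK2 (-0.94) nor NCK1 (-0.73) was. IRS2, which docks on the insulin and IGF receptors, was listed at 3.97 and 0.91 TPM, a change of -1.38, and CRK at 9.13 and 2.92 TPM, a change of -1.37. SHC1 had the most TPM, at 85.0 and 89.4 TPM, a change of 0.07. GRB7, a partner of ERBB2 encoded next to it, was listed at 60.7 and 51.7 TPM, and GRB2, the adaptor that brings SOS to the receptors, was listed at 9.56 and 4.50 TPM, a change of -0.94.

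Of the 10 proximal enzymes, 8 had at least 1 TPM, with 2 past 2-fold lower and 0 past 2-fold higher and a median of -0.73. The 2 were PIK3CB (2.93 and 0.83 TPM) and PIK3R2 (21.9 and 10.2 TPM), a catalytic and a regulatory subunit of PI3K. Each lost 2-fold under 1 alternative, PIK3R2 at -0.85 with rescaled TPM and PIK3CB at -0.65 with the GC trend removed. SRC was listed at 41.3 and 22.9 TPM and PLCG1 at 31.8 and 18.7 TPM. All 8 were below 0, from -1.10 to -0.03, and STAT3, the nearest to 0, turned to 0.17 with rescaled TPM.

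Of the 21 negative regulators, 20 had at least 1 TPM, with 6 past 2-fold lower and 0 past 2-fold higher and a median of -0.57. The 6 were SPRY2, SPRY4, ERRFI1, CBLB, LRIG3 and SPRED2. With the GC trend removed 2 of them, SPRY2 and SPRY4, stayed past 2-fold lower, where 788 of 14640 genes in all were lower. ERRFI1 was then at -0.92, CBLB at -0.76, LRIG3 at -0.86 and SPRED2 at -0.93. ERRFI1, a direct inhibitor of the EGFR kinase, was listed at 47.3 and 18.3 TPM, a change of -1.32. SPRY4 and SPRY2, which dampen RAS-ERK signalling downstream of the receptors, were listed at 9.91 and 3.21 TPM and at 3.75 and 0.77 TPM. The phosphatases PTPN2 (34.8 and 34.5 TPM) and PTPRF (30.8 and 31.1 TPM) had changes of -0.01 and 0.02, and PTPN2 turned to 0.19 with rescaled TPM.

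The ERK output genes are 10 genes whose transcription is used as a reading of ERK activity, and SPRY2 and SPRY4 are also among the negative regulators and EPHA2 among the kinases above. The minimum was passed by 9 of them, and the median change was -1.02. Past 2-fold lower were 5 (55.6%) and past 2-fold higher 0, against 9.61% and 4.82% of all genes. DUSP6, the phosphatase that removes phosphate from ERK, was listed at 16.9 and 6.41 TPM, a change of -1.27, and the transcription factor ETV5 at 11.4 and 5.10 TPM, a change of -1.02. SPRY2, SPRY4 and EPHA2 were the other 3. Past 2-fold lower were 3 of the list with rescaled TPM, where EPHA2 was at -0.95 and ETV5 at -0.85. With the GC trend removed there were also 3, and DUSP6 was at -0.93 and ETV5 at -0.72. Of all genes, 1022 of 15151 were past 2-fold lower with rescaled TPM and 788 of 14640 with the GC trend removed. The list was not uniform, since its 3 genes with the most TPM were within 2-fold. ETV4 was listed at 220.5 and 215.0 TPM, a change of -0.04 that turned to 0.17 with rescaled TPM. CCND1, the gene of cyclin D1, was listed at 60.3 and 69.7 TPM, a change of 0.21. It was at 0.41 with rescaled TPM and at 0.47 with the GC trend removed. DUSP4 was listed at 27.5 and 29.2 TPM, a change of 0.09 that was 0.29 with rescaled TPM and 0.33 with the GC trend removed. Messenger RNA does not measure the phosphorylation of ERK or of the receptors.

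The changes of all genes varied with properties of the transcript, so the receptors were placed among genes alike in these. The 11792 protein-coding genes with at least 1 TPM and an annotated transcript were split in 5 by size order, once for transcript GC content, once for transcript length (longest transcript of each gene) and once for control TPM. The median change was -0.48 for the genes poorest in GC and 0.11 for the richest. Each of the 9 receptors lay below the median of its own GC group. ERBB3 (52.6% GC) was at percentile 13.3 of its group and ERBB2 (57.5% GC) at percentile 15.3, while MET (43.5% GC) and FGFR1 (51.3% GC) were nearest the middle, at percentiles 41.6 and 45.3. FGFR4 had the highest GC content of the 9 (63.4%) and was at percentile 34.4 of a group whose median was above 0.

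By length and by level the placing was less even. The longest transcripts of the 9 receptors ran from 3093 bases (FGFR4) to 12235 bases (IGF1R), and 5 of the 9 fell in the fifth of genes with the longest transcripts, where the median change was -0.36. Within its group by length, FGFR1 was at percentile 50.6 and FGFR4 at 62.4, and the other 7 were under the median. By level, FGFR1 was at percentile 52.2 of its group and the other 8 were under the median. The part of GC content and length in the changes was not tested beyond these values and the removal of the GC trend.

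No 100-base stretch was shared with other kinases: 0 of the 100-base windows in the longest transcript of each occurred in the annotated transcripts of another receptor tyrosine kinase. Expressed genes overlap 2 of the receptors on the opposite strand, and the sources used here do not say whether counting used the strand. MIEN1, which overlaps ERBB2 in 5.53% of the exonic bases of ERBB2, was listed at 156.1 and 44.04 TPM, and PGAP3, which overlaps it in 1.40%, at 23.9 and 20.4 TPM. LETM2, which overlaps FGFR1 in 0.802% of its exonic bases, was listed at 2.58 and 1.51 TPM. MIR4728, within ERBB2 on the same strand and outside its exons, was listed at 1.12 and 0.70 TPM. The part of these overlaps in the TPM of ERBB2 and FGFR1 was not tested.

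The genes beside the receptors differed in direction from one receptor to the next. Within 1 Mb of EGFR, the 13 other genes with at least 1 TPM had a median change of 0.08 and 6 of them were below 0, with SEC61G (387.9 and 440.6 TPM) and LANCL2 (7.74 and 6.12 TPM) nearest. Around ERBB3 the 59 other genes had a median of -0.19, and its nearest neighbours were RPS26 (771.0 and 938.8 TPM) and PA2G4 (142.2 and 100.2 TPM). Around ERBB2 the median of 44 genes was -0.22. Besides PGAP3 (23.9 and 20.4 TPM) and MIEN1 (156.1 and 44.04 TPM), which overlap it, the nearest were TCAP (1.21 and 1.79 TPM) and GRB7. The ERBB receptors were thus lower than the median of their surroundings, as was each other receptor with at least 1 TPM. FGFR4 was closest to its surroundings, at -0.13 against -0.09. MET lay beside CAPZA2, which was past 2-fold lower (4.04 and 0.97 TPM), and CAV1 (2.80 and 2.91 TPM), and the median of 7 genes was -0.42. FGFR4 had ZNF346, past 2-fold lower (11.6 and 1.95 TPM), and NSD1 (5.65 and 2.70 TPM) on either side, and the median of 35 genes was -0.09. Both nearest neighbours of IGF1R, NR2F2 (16.5 and 3.90 TPM) and SYNM (2.97 and 0.25 TPM), were past 2-fold lower, and the median of 7 genes within 1 Mb was 0.00072, though NR2F2 lies farther off than that. Both neighbours of AXL, CYP2S1 (60.3 and 32.4 TPM) and HNRNPUL1 (66.8 and 36.98 TPM), had less TPM in the GDF1 library, and the median of 42 genes was 0.06. Leaving aside LETM2, which overlaps it, FGFR1 lay between NSD3 (13.1 and 11.1 TPM) and TACC1 (1.07 and 1.47 TPM). The median around FGFR1 was -0.27 over 22 genes. FGFR3 lay between TACC3 (86.1 and 106.8 TPM) and LETM1 (37.3 and 31.4 TPM), with a median of -0.29 over 34 genes. FGFR2, itself at 0.0001 TPM, lay between WDR11 (7.52 and 3.88 TPM) and ATE1 (2.31 and 2.22 TPM).

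**Figure D3:**
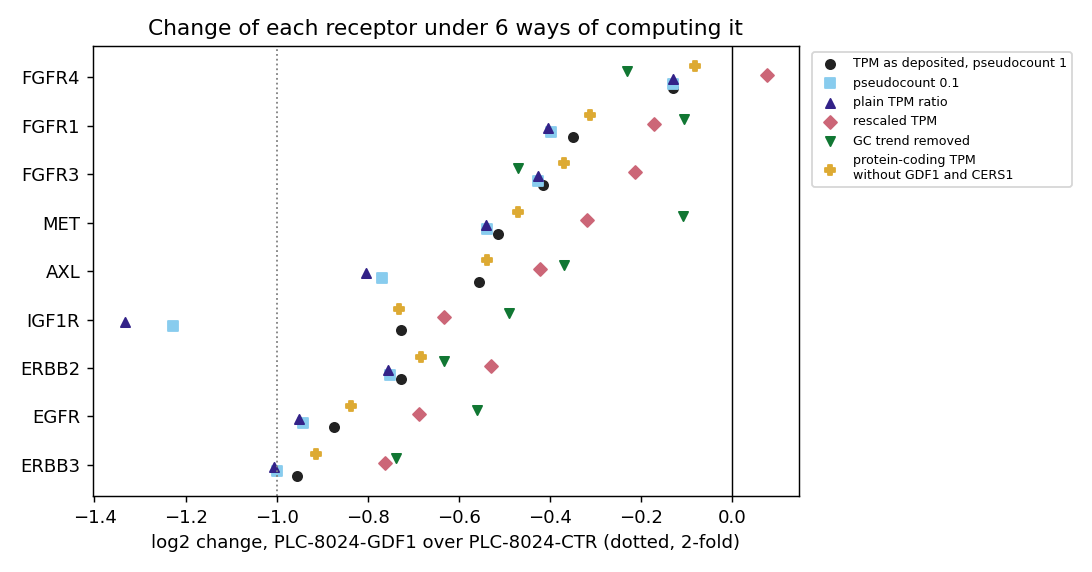
Log2 change of the 9 receptors with at least 1 TPM under 6 ways of computing it, 1 symbol each. ERBB3 keeps between -1.01 and -0.74 and EGFR between -0.95 and -0.56, IGF1R spreads from -1.33 to -0.49, and FGFR4 alone crosses 0, at 0.08 with rescaled TPM.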

How the data were processed

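The authors filtered reads with Trimmomatic (version 0.36), aligned them to hg19 with HISAT2 (version 2.1.0) and quantified them with StringTie (version 1.3.3b), from poly-A selected, paired-end libraries. These tool versions are from the submitters' processing notes. The authors deposited 1 TPM value per gene and library. The methods name a RefSeq annotation, and the tables list Ensembl identifiers. The 2 tables were joined on the identifier and summed to 999990 and 999995 TPM. Changes used a pseudocount of 1, and genes below 1 TPM in both libraries were left out of the counts past 2-fold. The DEGseq test of the study needs read counts, which were not used here. Positions, lengths and GC content came from GENCODE v44 on GRCh37, which held 55726 identifiers. The GC trend was a lowess fit with a span of 0.3. Promoter windows came from RefSeq on GRCh38.p14. Python 3.11.15, pandas 2.3.3 and statsmodels 0.14.6 were used, and the counting was tested on simulated data. Named by rule were the 10 receptors, GDF1 and CERS1. From each list came the genes past 2-fold (at most 8) and the 3 with the highest mean TPM. Any gene of the shorter ligand lists could also be named. Around each receptor came the nearest expressed protein-coding gene on each side that does not overlap it. Expressed genes overlapping a receptor on its own strand were named too. INSR, TYRO3, EPHA10, LMTK3, FGF19, FGF21, KL, GRB2, STAT3, MIEN1, PGAP3, LETM2, PTPRC, HBB, VWF and KDR were added after their values were seen. The receptors and lists were chosen with earlier results of these data known. The alternatives were other pseudocounts, TPM minimums and scalings, and removal of the GC trend.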

Additional observations from a re-analysis of the deposited data

How the results depend on the processing

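No paired analysis was possible because the 2 conditions have 1 library apiece, and no replicate could be left out. Of 45 values of single receptors under 5 alternatives, 41 kept their direction and their side of 2-fold, 3 passed 2-fold (IGF1R under a pseudocount of 0.1, and both IGF1R and ERBB3 by the plain ratio) and 1 reversed, FGFR4 at 0.077 with rescaled TPM. Receptors past 2-fold lower thus numbered 1 (pseudocount of 0.1) or 2 (plain ratio). The median of the receptors stayed between -0.75 and -0.42 under the 7 alternatives. Other kinases past 2-fold lower numbered 1 with rescaled TPM. Pathway genes past 2-fold, 2 higher and 17 lower at first, numbered 4 and 26 at a pseudocount of 0.1, 4 and 29 by the plain ratio, 0 and 8 with the GC trend removed and 1 and 11 with at least 5 TPM. All genes past 2-fold, 720 higher and 1434 lower at first, numbered 1167 and 2315 at a pseudocount of 0.1, 1229 and 2437 by the plain ratio, 1030 and 788 with the GC trend removed, 1062 and 1022 with rescaled TPM and 471 and 1041 with at least 5 TPM. The share of higher calls, 33.4% at first, was 51.0% with rescaled TPM and 56.7% with the GC trend removed. Fewer genes are tested with at least 5 TPM; a smaller pseudocount shrinks low genes less. The other causes were not tested. TPM carries no depth, which limits IGF1R and AXL most.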
